A study of Mus musculus with 4 samples.

Results

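The 10 genes described here, Scmh1, Phc1, Bmi1, Ring1, Rnf2, Ezh1, Ezh2, Eed, Suz12 and Jarid2, encode core subunits and partners of the Polycomb repressive complexes. They were taken by gene symbol from the 23756 genes of the deposited table, and each symbol matched 1 row. Scmh1 was chosen because its level had been seen to be lower in both libraries from cells growing without IL-3, and the other 9 genes were added as members of the same complexes. The difference of Scmh1 between the groups is therefore given as a description without a test, while the other 9 genes are compared by the fit across all genes.

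The cells were 32Dcl3-Abl1ko, made from a mouse blood progenitor line that depends on IL-3 by targeting Abl1 with CRISPR/Cas9. All 4 samples carry the genotype label Abl1 KO, and their labels differ in IL-3: Abl1ko/IL3+ cells were cultured with IL-3 (2 libraries) and Abl1ko/IL3- cells without it (2 libraries). The series describes the cultures as biological duplicates. The study worked with single clones and with 2 guides, and no source used here ties a clone or a guide to a library, so a difference between clones and one between IL-3 conditions cannot be told apart. The comparison asks how expression differs in knockout cells that have become independent of the growth factor.

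Polycomb proteins keep developmental genes silent through 2 kinds of complex. Polycomb repressive complex 2 (PRC2) places methyl groups on a histone tail through EZH1 or EZH2, which work only when bound to EED and SUZ12, and JARID2 helps to bring the complex to its sites. Polycomb repressive complex 1 (PRC1) attaches ubiquitin to another histone through RING1 or RNF2 paired with a Polycomb group ring finger protein such as BMI1. Polyhomeotic proteins such as PHC1 and the sex comb on midleg homolog SCMH1 join it, and their SAM domains link such proteins to each other. In blood, BMI1 is known for sustaining the self-renewal of stem cells, and EZH2 is recurrently mutated in myeloid and lymphoid malignancies.

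Total counts ranged from 48953174 to 60382588 per library. On these raw totals 3 counts correspond to between 0.0497 and 0.0613 CPM (counts scaled to a common library total), a floor for counting error only. The other CPM values given here are also normalized between libraries, so they are on a slightly different scale. For Abl1 the Abl1ko/IL3+ replicates gave 1322 and 2222 counts and the Abl1ko/IL3- replicates 1544 and 2256, and its RNA level does not show whether the protein is lost. The labels call the cells pre-B cells. Of 10 B-lineage markers, 5 could be tested, and Pax5 and Ebf1 were not analysed here. The B-lineage list summed to between 19.0 and 26.0 CPM, of which Cd79b gave between 11.2 and 16.2 CPM, while 15 promyelocyte and granulocyte markers summed to between 2406 and 6561 CPM, so the levels go against the label. Within the promyelocyte and granulocyte list Camp, Ltf, Ly6g, S100a8 and S100a9 stood higher in both libraries without IL-3 (33.3%, against 19.4% of all genes tested). Mpo and Spi1 stood lower (13.3%, against 17.9%). The gap between groups was 62.1-fold for S100a8 and 1.05-fold for Spi1. Camp had few reads, with 4 and 0 counts with IL-3 and 21 and 193 without it. Ngp gave 4003 of the 6561 CPM of the list in Abl1ko/IL3- replicate 2. The libraries also differed within a group. The 6 erythroid markers summed to 184.6 and 7054 CPM with IL-3 and to 3449 and 1675 CPM without it. Of these sums Hba-a1 gave 117.3 and 6745 CPM with IL-3 and 3316 and 1575 CPM without it. The 8 mast cell markers summed to 545.5 and 84.1 CPM with IL-3 and to 156.9 and 122.5 CPM without it. The summed macrophage markers ranged from 59.9 to 330.9 CPM and the megakaryocyte markers from 551.4 to 824.3 CPM over the libraries. Of the megakaryocyte sums Itga2b gave between 534.8 and 792.5 CPM. The part of these differences in the results for the Polycomb genes was not tested. In bulk RNA, fewer cells of a type and less RNA per cell cannot be told apart.

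Scmh1 (ENSMUSG00000000085) lies on the plus strand of chromosome 4 from 120405281 to 120530186 in GRCm38, and Phc1 (ENSMUSG00000040669), the other member with both libraries without IL-3 below both with IL-3, on the minus strand of chromosome 6 from 122317731 to 122339708. The promoters of both genes are shown because these are the members with that order of libraries. RefSeq places 2 starts in Scmh1, and the 250 bases before each start, and before the start of Phc1, read as follows in GRCm38.p6, 5′ to 3′ on the strand of the gene, with CpG dinucleotides in capitals. The RefSeq starts of both genes are not those of the gene coordinates above.
Scmh1 first start, plus strand, chr4:120405098-120405347: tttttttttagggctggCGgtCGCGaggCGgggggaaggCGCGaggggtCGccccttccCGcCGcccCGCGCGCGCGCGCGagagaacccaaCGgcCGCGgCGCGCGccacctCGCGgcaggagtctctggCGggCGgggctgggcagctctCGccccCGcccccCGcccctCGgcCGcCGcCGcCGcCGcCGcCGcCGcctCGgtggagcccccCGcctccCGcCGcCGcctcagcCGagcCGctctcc
Scmh1 second start, plus strand, chr4:120452994-120453243: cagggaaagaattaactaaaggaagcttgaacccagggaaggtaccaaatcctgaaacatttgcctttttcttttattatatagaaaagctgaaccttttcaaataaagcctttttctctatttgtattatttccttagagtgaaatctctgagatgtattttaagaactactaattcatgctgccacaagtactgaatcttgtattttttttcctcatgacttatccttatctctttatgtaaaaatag
Phc1, minus strand, chr6:122340228-122340477: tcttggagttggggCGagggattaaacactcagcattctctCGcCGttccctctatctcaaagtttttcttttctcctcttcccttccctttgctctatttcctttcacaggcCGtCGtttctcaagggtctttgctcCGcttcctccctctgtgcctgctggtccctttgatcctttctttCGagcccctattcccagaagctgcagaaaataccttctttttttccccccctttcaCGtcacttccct

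Of the Scmh1 windows, the first holds 45 CpG dinucleotides and is 81.6% G and C, and 99.7% of the 32851 RefSeq windows of this length hold as many CpG or fewer. The second holds 0 CpG and is 31.2% G and C. Phc1 holds 8, close to the median of 6 over all windows. The 12 windows of the 10 genes had a median of 21.5 CpG, and Suz12 (37) and Ring1 (30) followed Scmh1. No comparison with the windows of expressed genes alone was made, so this median is not shown to be particular to Polycomb genes. The deposited counts are summed over the gene, so they do not say which start of Scmh1 was used.

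Short motifs were searched on both strands of the same windows. The E2F letters TTCCCGC occurred in the first Scmh1 window and in that of Suz12, and in 3.82% of all windows. The STAT letters TTCNNNGAA, which STAT5 downstream of the IL-3 receptor can bind, occurred in Phc1 alone among the 12 windows and in 7.02% of all windows. CCAAT, the NF-Y box, was found in 3 of the 12 windows (Ezh2, Suz12 and 1 of Jarid2) and in 33.8% of all, and the E-box CACGTG in that of Bmi1 and in 6.02% of all. These are matches of letters in a window.

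Scmh1 was lower without IL-3. It had 39.0 and 17.8 CPM in Abl1ko/IL3+ replicates 1 and 2, from 2514 and 969 counts, and 6.64 and 9.25 CPM in Abl1ko/IL3- replicates 1 and 2, from 318 and 537 counts (CPM after normalization by the trimmed mean of M-values, TMM). Both libraries without IL-3 lay under both with it, and the lower library with IL-3 was 1.93 times the higher one without. The libraries with IL-3 were themselves 2.19-fold apart. The fitted level was 3.57-fold lower without IL-3 (log2 fold change -1.84), and it was -1.15 without Abl1ko/IL3+ replicate 1, which carries the highest value, and -2.29 without Abl1ko/IL3+ replicate 2. Over all genes tested, 580 of 16535 (3.51%) had a log2 fold change this low or lower, and 433 (2.62%) were lower in both libraries without IL-3 with a gap at least as wide. As the gene was chosen for being lower in both of those libraries, these shares only describe its place and are not evidence of a difference. In exons annotated by GENCODE release M21, Scmh1 overlaps no other gene.

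**Figure D1:**
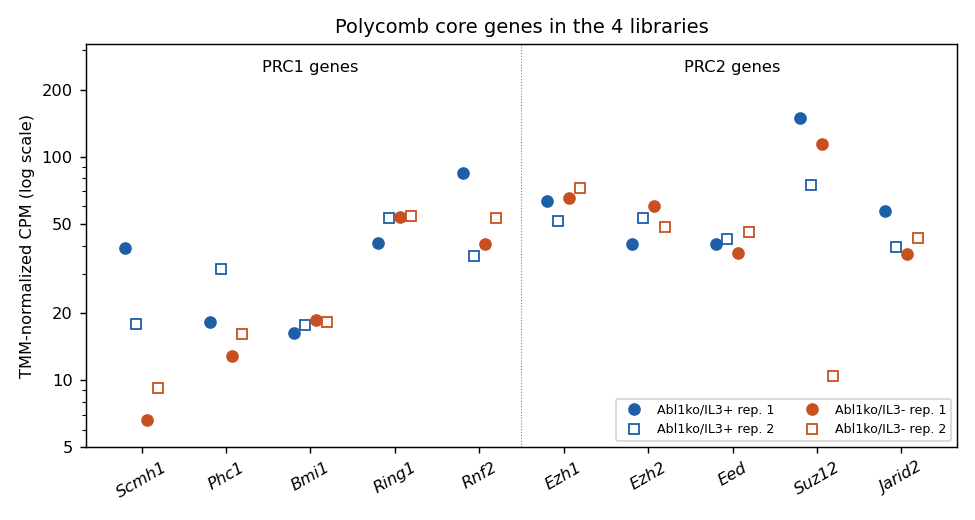
TMM-normalized CPM on a log scale of the 10 Polycomb core genes in each library, with IL-3 in blue and without IL-3 in orange, replicate 1 as filled circles and replicate 2 as open squares. Scmh1 and Phc1 lie lower in both libraries without IL-3, most other genes lie close together, and Suz12 stands at 10.5 CPM in Abl1ko/IL3- replicate 2 alone.

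Over the whole table, edgeR's quasi-likelihood test called 0 of 16535 genes (0%) at an adjusted p of 0.05 (Benjamini-Hochberg), while 978 (5.91%) reached 0.05 unadjusted. DESeq2 called 271 (1.64%), and blocking on the replicate number left 548 genes (3.31%) at that unadjusted level in edgeR. Of the 9 other core genes, 0 were called by edgeR or DESeq2, and 0 reached 0.05 unadjusted in either tool. Their adjusted p-values ran from 0.874 to 0.999 in edgeR. Their log2 fold changes had a median of -0.0060, against -0.027 over all genes tested, with 4 genes higher and 5 lower. Both libraries without IL-3 lay below both with it for 1 of the 9 and above for 3, where 17.9% of all genes tested lay below and 19.4% above.

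Among the other PRC1 genes, Phc1, which encodes a polyhomeotic protein with a SAM domain, had 18.3 and 31.6 CPM with IL-3 and 12.8 and 16.2 CPM without it. The groups did not overlap, but the gap was 1.13-fold and the replicates with IL-3 were 1.73-fold apart. Its log2 fold change was -0.78 with a standard error of 0.44 (edgeR adjusted p = 0.874). It was -0.34 without Abl1ko/IL3+ replicate 2, the highest library, and -1.11 without Abl1ko/IL3+ replicate 1. Scmh1 and Phc1 were thus highest in different libraries with IL-3, Scmh1 in replicate 1 and Phc1 in replicate 2.

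Bmi1 and Ring1 encode ring finger proteins of PRC1. Bmi1, on chromosome 2, had 16.3 and 17.6 CPM with IL-3 and 18.7 and 18.3 CPM without it, the narrowest span of the 10 genes at 1.15-fold from the lowest to the highest library. Its log2 fold change was 0.12 with a standard error of 0.35. Ring1, a catalytic subunit encoded on chromosome 17, had 40.9 and 53.4 CPM with IL-3 and 53.6 and 54.4 CPM without it (log2 fold change 0.20, standard error 0.32). The values of Bmi1 and Ring1 were higher in both libraries without IL-3, by gaps of 1.04-fold and 1.004-fold.

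Rnf2, the other catalytic subunit of PRC1, encoded on chromosome 1, had 84.5 and 35.8 CPM with IL-3 and 40.9 and 53.3 CPM without it. The high value in Abl1ko/IL3+ replicate 1 set its direction: the log2 fold change was -0.35 (standard error 0.50) over all libraries and 0.41 without that replicate. The ratio of Ring1 to Rnf2 in FPKM (fragment counts scaled to gene length and depth, so that levels of different genes can be compared) was 0.617 and 1.90 for the IL-3 cultures, against 1.67 and 1.30 for those without. The mean log2 ratio was higher by 0.45 without IL-3, with an exact permutation p of 1 (two-sided, 2 against 2 libraries, where the smallest possible is 0.333, and 1 after adjustment over 2 ratios). The difference turned to -0.36 without Abl1ko/IL3+ replicate 1.

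**Figure D2:**
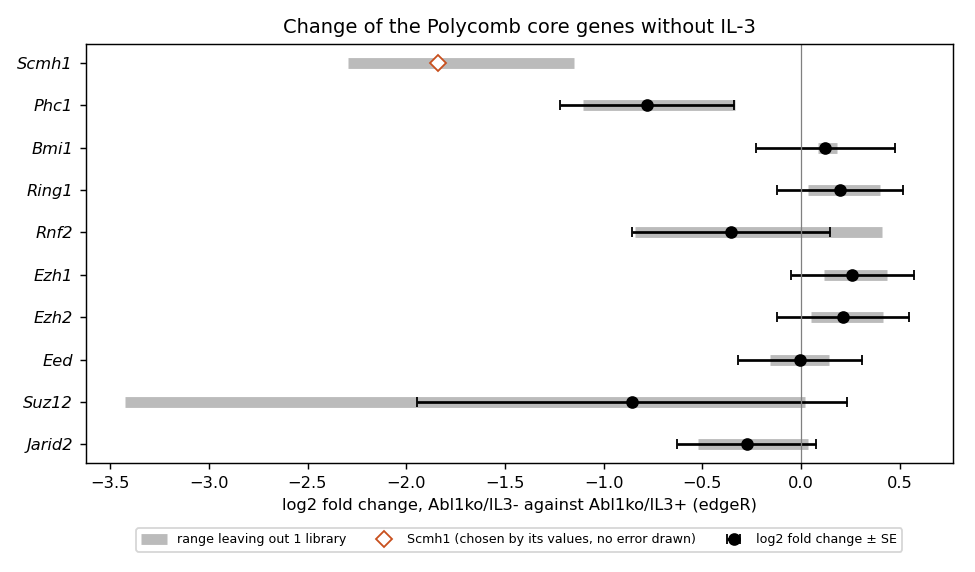
Fitted log2 fold change of each Polycomb core gene (Abl1ko/IL3- against Abl1ko/IL3+, edgeR), with standard errors as black bars, and the range over 4 fits that each leave out 1 library as grey bars. Scmh1 is drawn without an error because it was chosen by its values, and that choice fixes its direction when 1 library is left out. Its range runs from -2.29 to -1.15, and that of Suz12 from -3.42 to 0.02.

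Among the PRC2 genes, neither catalytic subunit passed the test. Ezh1, on chromosome 11, had 63.5 and 51.5 CPM with IL-3 and 65.2 and 72.3 CPM without it. Ezh2, on chromosome 6 and generally the form of dividing cells, had 40.8 and 53.1 CPM with IL-3 and 60.1 and 48.7 CPM without it. Ezh1 was higher in both libraries without IL-3 by a gap of 1.03-fold, while the groups overlapped for Ezh2. The log2 fold changes were 0.26 for Ezh1 (standard error 0.31) and 0.21 for Ezh2 (standard error 0.33).

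The balance of the 2 enzymes varied as much within the groups as between them. In FPKM, the ratio of Ezh1 to Ezh2 was 1.40 and 0.873 for the IL-3 cultures, against 0.974 and 1.34 for those without. The mean log2 ratio differed by 0.047 (exact permutation test, two-sided, p = 1, adjusted p = 1 over 2 ratios). Its direction turned to -0.29 without Abl1ko/IL3+ replicate 2 and to -0.18 without Abl1ko/IL3- replicate 2.

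Eed, on chromosome 7, whose protein binds the methylated histone tail and activates the enzyme, had 40.8 and 42.7 CPM with IL-3 and 37.2 and 45.9 CPM without it. Both values with IL-3 fell between those without it, and the log2 fold change was -0.0060 (standard error 0.32). Jarid2, on chromosome 13, had 57.5 and 39.5 CPM with IL-3 and 36.6 and 43.5 CPM without it. The highest value was again Abl1ko/IL3+ replicate 1, and the log2 fold change of -0.28 (standard error 0.35) became 0.035 without that library.

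Suz12 was the member with the widest span. It had 149.7 and 75.0 CPM in the Abl1ko/IL3+ replicates and 113.7 CPM in Abl1ko/IL3- replicate 1, but 10.5 CPM in Abl1ko/IL3- replicate 2, from 9652, 4080, 5440 and 608 counts. The libraries without IL-3 were thus 10.9-fold apart, and 1 library carried the low value. The log2 fold change was -0.86 with a standard error of 1.09 (edgeR adjusted p = 0.96). Without Abl1ko/IL3- replicate 2 it was 0.021, and without Abl1ko/IL3- replicate 1 it was -3.42. With the replicate number as a block it was -1.62. In 137 of 16535 genes tested (0.829%), that library lay at or under 1 in 7 of every other library, a limit chosen after the values of Suz12 were seen.

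Genes next to Suz12 on chromosome 11 were looked up after its values were seen. Suz12 spans 79993106 to 80034123 on the plus strand. Utp6, which lies before it, had 44.7 CPM in Abl1ko/IL3- replicate 2 against 49.4 to 59.9 in the others, and Crlf3, which lies after it, had 67.2 CPM against 56.7 to 86.1. The antisense gene Gm26563 shares 178 of 4945 exonic bases with Suz12 (3.6%) and had between 0.129 and 0.669 CPM. The ratio of Suz12 to Eed in FPKM was 2.85 and 1.36 for the IL-3 cultures, against 2.37 and 0.176 for those without.

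**Figure D3:**
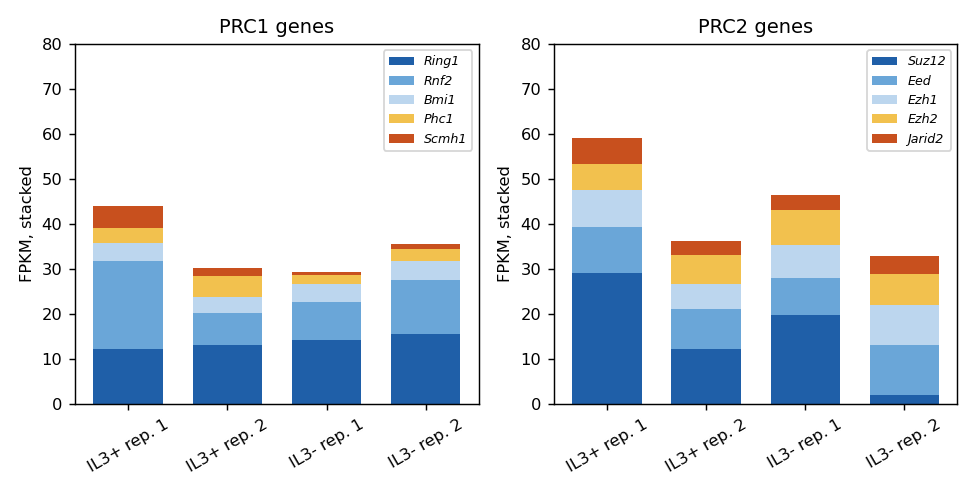
FPKM of the PRC1 genes (left) and PRC2 genes (right) stacked for each library. Suz12 made up 54.5%, 36.9% and 45.6% of the summed FPKM of Suz12, Eed, Ezh1 and Ezh2 in Abl1ko/IL3+ replicates 1 and 2 and Abl1ko/IL3- replicate 1, and 6.78% in Abl1ko/IL3- replicate 2.

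On the FPKM scale the mean levels over the 4 libraries were 15.7 for Suz12, 13.7 for Ring1, 11.8 for Rnf2, 9.64 for Eed, 7.56 for Ezh1 and 6.66 for Ezh2. Jarid2 (4.08), Bmi1 (3.94), Phc1 (3.24) and Scmh1 (2.13) were lower. In this order the library values of neighbouring genes overlapped at every step except between Ezh2, whose lowest value was 5.87 FPKM, and Jarid2, whose highest was 5.69 FPKM. Scmh1 had 4.84 and 1.84 FPKM with IL-3 and 0.730 and 1.10 FPKM without it, and it ranked 8 of 10 in Abl1ko/IL3+ replicate 1 and 10 of 10 in the other libraries. Its share of the summed FPKM of Ring1, Rnf2, Bmi1, Phc1 and Scmh1 was 11.0% and 6.08% for the IL-3 cultures, against 2.49% and 3.09% for those without. Summed over those 5 genes the FPKM was 43.9 and 30.3 for the IL-3 cultures, against 29.4 and 35.6 for those without, so the sums overlapped between groups.

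The genes nearest to Scmh1 in pattern, by Euclidean distance of log2 CPM around each gene's mean over the 4 libraries, were Gm6055 (distance 0.111), Idh1 (0.153) and Tubb3 (0.163). Idh1, a cytosolic NADP-dependent isocitrate dehydrogenase, had 478.7 and 228.9 CPM with IL-3 and 76.9 and 104.0 CPM without it. Tubb3, a beta-tubulin, had 23.8 and 10.9 CPM with IL-3 and 4.22 and 5.05 CPM without it. They are named for likeness over 4 libraries alone.

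For the genes near Scmh1 on chromosome 4 the groups overlapped. Ctps, which encodes a CTP synthase, had 20.8 and 43.8 CPM with IL-3 and 38.9 and 20.2 CPM without it. Nfyc, which encodes a subunit of the factor NF-Y, had 27.4 and 38.9 CPM with IL-3 and 43.2 and 29.5 CPM without it. Rims3 had 14.6 and 6.07 CPM with IL-3 and 8.92 and 8.30 CPM without it. These were the 3 tested genes whose lowest coordinate lay within 500 kb of that of Scmh1.

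**Figure D4:**
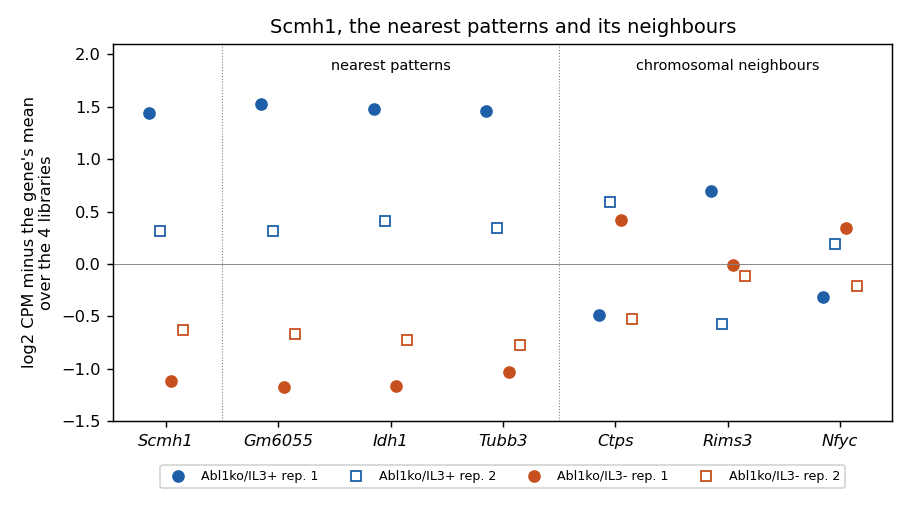
Log2 CPM minus the gene's mean over the 4 libraries for Scmh1, the 3 genes nearest to it in pattern and the 3 tested genes within 500 kb, with IL-3 in blue and without IL-3 in orange. Scmh1 and the nearest genes lie above 0 in both libraries with IL-3 and below 0 in both without, whereas the groups overlap for the chromosomal neighbours.

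Of 62 further genes of the Polycomb and Trithorax systems, 54 were tested and 0 were called by edgeR or DESeq2, with 1 at an unadjusted p under 0.05 in each. Over all genes tested, edgeR called 0% and DESeq2 1.64%, and 5.91% reached 0.05 unadjusted in edgeR. The median log2 fold change of the 54 was -0.13, with 18 higher and 36 lower. All genes tested had a median of -0.027, with 7946 higher and 8589 lower. Whether the 54 differ from all genes in direction was not tested. Both libraries without IL-3 lay below both with it for 9 of the 54 companion genes (16.7%, against 17.9% of all genes tested). They lay above for 8 (14.8%, against 19.4%).

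Of 24 tested genes of canonical and variant PRC1, 6 were lower (25%) and 5 higher (20.8%) without IL-3 by this count. The shares over all genes tested were 17.9% and 19.4%. The median log2 fold change of the list was -0.16. L3mbtl2, a protein of the same MBT-domain family as SCMH1 that belongs to a variant PRC1, had the widest gap of the list. It had 28.3 and 17.7 CPM with IL-3 and 5.45 and 10.5 CPM without it, and the fitted log2 difference was -1.53 with a standard error of 0.53 (edgeR adjusted p = 0.815). It was the gene with an unadjusted p under 0.05 in edgeR. Usp7, a deubiquitinase found with PRC1, had 162.4 and 202.9 CPM with IL-3 and 22.9 and 133.8 CPM without it, a span set by Abl1ko/IL3- replicate 1. Kdm2b, which brings a variant PRC1 to CpG islands, had 76.7 and 74.4 CPM with IL-3 and 50.8 and 62.0 CPM without it. Cbx7, which reads the methyl mark, had 9.22 and 9.29 CPM with IL-3 and 14.02 and 11.4 CPM without it. Pcgf6 and Dcaf7 were likewise higher in both libraries without IL-3, by gaps of 1.15-fold and 1.12-fold.

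Of 6 tested accessory genes of PRC2, both libraries without IL-3 lay below both with it for 2 (33.3%) and above for 0. These shares were 17.9% and 19.4% over all genes tested. By fitted log2 fold change, 3 of the 6 were higher and 3 lower. Rbbp7, a histone-binding subunit also found in other chromatin complexes, had 137.8 and 151.6 CPM with IL-3 and 90.8 and 89.8 CPM without it. The gap was 1.52-fold and the replicates agreed closely, yet the edgeR adjusted p was 0.854 (log2 fold change -0.68, standard error 0.30). Its paralog Rbbp4 had 275.5 and 452.8 CPM with IL-3 and 264.1 and 243.9 CPM without it. Among 5 tested MBT-domain relatives of Scmh1 on a separate list, Scml4 alone did not overlap between groups, at levels of 1.13 CPM or less. It was lower without IL-3, a share of 20% against 17.9% of all genes tested. L3mbtl2, of the same family but listed with PRC1, did not overlap either, with a gap of 1.68-fold.

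Of the genes that oppose Polycomb, the 7 tested removers of Polycomb marks include the demethylases Kdm6a and Kdm6b and the deubiquitinase Bap1. The groups overlapped for all of them, where 17.9% of all genes tested lay lower and 19.4% higher without overlap. Their log2 fold changes ran from -0.54 to 0.18. Of 12 Trithorax group genes, both libraries without IL-3 lay below both with it for 0 and above for 3 (25%). These shares were 17.9% and 19.4% over all genes tested. By fitted log2 fold change, 4 of the 12 were higher and 8 lower, with a median of -0.051. Kmt2d, a histone methyltransferase of enhancers, had 44.2 and 41.5 CPM with IL-3 and 78.5 and 61.9 CPM without it (log2 fold change 0.71, standard error 0.32, edgeR adjusted p = 0.854). Kmt2a had 59.3 and 53.0 CPM with IL-3 and 84.4 and 68.9 CPM without it, and Rbbp5 a gap of 1.0003-fold. The log2 fold changes of the list ran from -1.49 to 0.71.

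**Figure D5:**
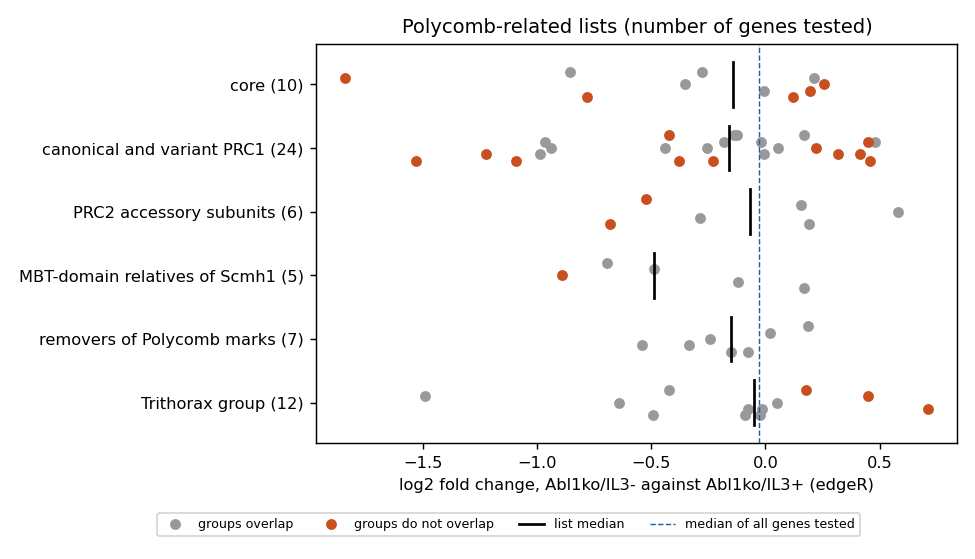
Fitted log2 fold change (Abl1ko/IL3- against Abl1ko/IL3+) for each tested gene of 6 Polycomb-related lists, with list medians as black lines, the median of all genes tested as a dashed line, and genes whose groups do not overlap in orange. The list medians lie between -0.49 and -0.051, and Scmh1 at -1.84 is the lowest point drawn.

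The 3 classical targets of Polycomb that were in the table, Hoxa7, Hoxc6 and Cdkn2b, were nearly silent in all 4 libraries. Of the Hox genes, Hoxa7 and Hoxc6 were the ones in the table, and Hoxa7 had 4 counts in Abl1ko/IL3+ replicate 1 and 0 elsewhere. Hoxc6 stayed between 0 and 0.294 CPM. Cdkn2b, a cell cycle inhibitor, had 4 counts in Abl1ko/IL3- replicate 1 and 0 elsewhere, and Cdkn2a was not analysed here. At these depths no difference in these 3 targets was detectable between the groups, and other targets were not examined.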

How the data were processed

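RNA-seq was measured in 4 libraries, and per the labels each is an Abl1 knockout sample with or without IL-3. The authors deposited raw counts per gene without normalization and FPKM values. Their methods name Rsubread alignment to GRCm38 and featureCounts, whereas the submitters' processing notes name STAR, Cuffdiff and mm10; versions and the strand setting are not given in the sources used here. Without strand, reads of Rnf2, Ezh2, Eed and Suz12 cannot be told from those of an antisense gene that shares 2.61% to 6.82% of their exonic bases.

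From the counts, edgeR 4.0.16 (R 4.3.3) kept 16535 genes by filterByExpr. TMM factors scaled the libraries, and glmQLFTest compared the groups (two-sided; calls at a Benjamini-Hochberg adjusted p under 0.05). Standard errors come from the fold change and the F statistic. Alternatives used DESeq2 1.42.0 and limma 3.58.1 on log2(FPKM + 1) and log2(FPKM + 0.1), library size alone, no filter, 10 counts in every library, the replicate block, crossed pairs and leaving out each library. The steps were tested on simulated data. Replicates differed by far more than sampling noise (chi-square per degree of freedom 530.3 with IL-3 and 202.7 without).

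The members and lists were chosen with earlier results of these data known. Genes named were the 10 core genes, at most 3 per direction and list by the gap between groups, the 3 nearest to Scmh1 in pattern and its tested neighbours. The neighbours and ratios of Suz12 were added after its values were seen. Promoter sequences are from RefSeq (GRCm38.p6), and all 10 genes matched.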

Additional observations from a re-analysis of the deposited data

How the results depend on the processing

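The count of genes past the threshold was 0 in edgeR, 271 with DESeq2's size factors and Wald test, and 0 to 15 when 1 library was left out, with the 15 found without Abl1ko/IL3- replicate 1. The lone library of a group was then assumed to vary like the other group. The count stayed at 0 for the 9 other core genes and for the companion genes under every alternative that kept all libraries, DESeq2 included. Deviations of same-numbered libraries correlated at -0.194 across genes. With 2 libraries per group, this value cannot decide whether the numbers pair the samples. With the replicate block 0 genes passed (548 unadjusted), the 9 other core genes and the companion genes included. With the pairs crossed, an alternative added once the data had been seen, 0 genes passed (1136 unadjusted).

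The log2 fold change of Scmh1 was -1.84. It was -1.75 with the replicate block, -1.10 on log2(FPKM + 1), where the pseudocount shrinks low values, and -2.29 to -1.15 when 1 library was left out. Scmh1 was chosen for being lower in both libraries without IL-3, so leaving out 1 library could not turn its direction. The median of the 9 other core genes was -0.0060, -0.014 with the replicate block, 0.035 with library size alone, and 0.021 to 0.052 when 1 library was left out. The differences in log2 ratio of 0.047 (Ezh1 to Ezh2) and 0.45 (Ring1 to Rnf2) have the same values as paired differences, and ranged from -0.29 to 0.39 (-0.18 without Abl1ko/IL3- replicate 2) and from -0.36 to 1.26 when 1 library was left out.

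Of 99 values for single core genes under alternatives, 90 kept their direction and 9 turned. Eed turned to 0.035 with library size alone, 0.0027 with 10 counts in every library, 0.0065 and 0.0061 on log2(FPKM + 1) and log2(FPKM + 0.1), 0.028 without Abl1ko/IL3+ replicate 2 and 0.14 without Abl1ko/IL3- replicate 1. Without Abl1ko/IL3+ replicate 1, Rnf2 turned to 0.41 and Jarid2 to 0.035, and Suz12 to 0.021 without Abl1ko/IL3- replicate 2. The cause of these turns was not tested. The ranges when 1 library was left out were -0.16 to 0.14 for Eed, -0.84 to 0.41 for Rnf2, -0.52 to 0.035 for Jarid2 and -3.42 to 0.021 for Suz12. No core gene had fewer than 318 counts in a library. Whether depth or the spread between libraries limits these values was not tested.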
